A study of Mus musculus with 8 samples.

Results

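The beta-defensin family was followed through the testes of Ip6k1 knockout and wild type mice. Its members were taken by name: every non-control array probe assigned in the files to a gene whose symbol starts with Defb and a digit, or to Spag11a or Spag11b. This gave 54 probes of 45 genes, among 55681 probes on the array. Gene expression was measured on 8 single-colour Agilent arrays with 2 arrays (n = 2, biological replicates per the labels) in each of 4 groups. The groups were Ip6k1-/- testes at 26 dpp (days postpartum), Ip6k1+/+ littermates' testes at 26 dpp, Ip6k1-/- testes at 17 dpp and Ip6k1+/+ testes at 17 dpp, all of strain C57BL/6 and all bred from Ip6k1+/- parents. Which part of the gene is missing in the animals labelled Ip6k1-/- is not given in the sources used here. P-values measure only the spread between these arrays.

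Beta-defensins are small secreted cationic peptides held in shape by disulphide bonds between conserved cysteines. They kill microbes by disrupting membranes, and some also act as ligands of chemokine or melanocortin receptors. In the mouse male tract many members are made by the epithelium of the epididymis, where they coat sperm and bear on sperm motility and fertility, whereas a smaller group is transcribed in the testis itself. The genes lie in clusters, and the probes fell on 4 chromosomes, with 4 probes of 3 genes on chromosome 1, 14 probes of 11 genes on chromosome 2, 27 probes of 26 genes on chromosome 8 and 9 probes of 5 genes on chromosome 14. On mm9, the build of the files' probe coordinates, the probes spanned chr1:18200148-18241302, chr2:152285053-152448152 and chr14:63596378-63668703. Those on chromosome 8 fell into separate stretches, 1 of them (Defb33) on an unplaced piece of that chromosome. No annotation of mm9 was used, and the exon or UTR under each probe is left unnamed.

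All member probes are 60 bases long. Of the 54, 13 hold an open reading frame with at least 3 cysteine codons. A group of 6 such probes is printed because their genes carry the results below, with the cysteine codons of the open frame (TGT or TGC) in capitals, on the strand the probe is read. The frame was chosen as the one without a stop codon that holds the most cysteine codons. The Defb11 probe lies at chr8:23015921-23015980 (minus strand), the Defb14 probe at chr8:19195152-19195211 (plus), the Defb28 probe at chr2:152345796-152345855 (plus), the Defb36 probe at chr2:152438270-152438329 (plus), the Defb39 probe at chr8:19052918-19052977 (minus) and the Spag11a probe at chr8:19159308-19159367 (plus).
Defb11: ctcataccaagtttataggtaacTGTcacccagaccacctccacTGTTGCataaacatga
Defb14: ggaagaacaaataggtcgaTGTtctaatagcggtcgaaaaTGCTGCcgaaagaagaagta
Defb28: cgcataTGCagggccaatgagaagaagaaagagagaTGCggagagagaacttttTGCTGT
Defb36: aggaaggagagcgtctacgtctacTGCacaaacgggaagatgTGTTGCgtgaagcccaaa
Defb39: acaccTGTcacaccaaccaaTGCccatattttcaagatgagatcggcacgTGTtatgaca
Spag11a: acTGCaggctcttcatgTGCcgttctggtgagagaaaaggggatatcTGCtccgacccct

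Levels are given on the log2 scale, as the processed signal over the 75th percentile of its array, so that 0 is the brightness of the probe at that percentile. A probe counts as detected where the scanner software marked it well above background. Across arrays 58.8% to 64.6% of all probes were detected, and replicates correlated across the genes tested, which are not independent replicates, at 0.979 to 0.989 except in knockout at 26 dpp (0.863). There knockout replicate 2 stood apart. The 8 spermatid markers had a median of 5.46 in knockout replicate 1 and −3.61 in knockout replicate 2 at 26 dpp, against 4.94 and 6.19 in wild type. Tnp1, which packages sperm chromatin, read 6.78 and −2.35 in knockout, and Spaca1, of the acrosome, 4.36 and −0.53. Ip6k1 itself read 1.41 and 1.30 in knockout against 2.79 and 2.77 in wild type at 26 dpp, and at 17 dpp 1.36 and 1.49 in knockout against 2.19 and 2.30 in wild type. Neither Ip6k1 difference passed (−1.43, SE 0.215, adjusted p = 0.527 at 26 dpp, and −0.82, adjusted p = 1 at 17 dpp), although knockout lay below wild type on every array at both ages. The Ip6k1 probe was detected on all 4 knockout arrays, so its level checks the genotype labels only in part. Germ cell and Sertoli cell transcripts were present in all 8 samples: of 8 spermatocyte markers 8 were detected on every array, and of 8 Sertoli markers 7 or 8.

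Detection of the family separated the wild type testes of 17 dpp from the rest. Of the 54 probes, the knockout arrays of 26 dpp detected 22 and 21 and the wild type arrays 24 and 22, whereas at 17 dpp the knockout arrays detected 19 and 18 and the wild type arrays 35 and 39. Both arrays of a group detected 17 probes in knockout against 21 in wild type at 26 dpp, and at 17 dpp 15 in knockout against 33 in wild type. The share of all probes did not follow the same course, with both arrays of a group detecting 56.0% in knockout against 59.7% in wild type at 26 dpp, and at 17 dpp 59.8% in knockout against 61.3% in wild type.

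**Figure D1:**
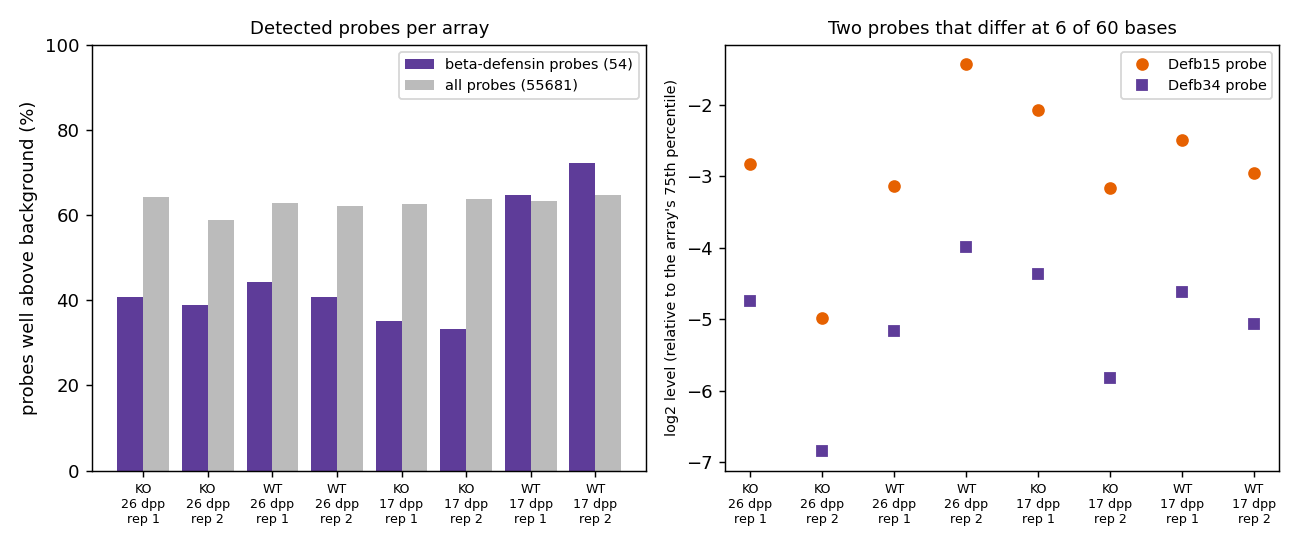
Left, share of the 54 beta-defensin probes (purple) and of all 55681 probes (grey) that were well above background on each array, in percent. Right, log2 levels of the Defb15 probe (orange circles) and the Defb34 probe (purple squares) on each array. On knockout replicate 2 of each age the Defb34 probe was undetected. The purple bars reach 64.8% and 72.2% on the wild type arrays of 17 dpp and stay at or below 44.4% on the other 6, and the 2 probes on the right go up and down together.

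Every member fell into 1 of 4 classes of detection. On all 8 arrays 12 probes were detected (Defb11, Defb15, Defb19, Defb20, Defb26, Defb28, Defb33, Defb48 and 2 each of Defb36 and Defb45). A further 24 probes were detected on both arrays of at least 1 group, which makes 36 probes of 29 genes that passed the filter for testing. The remaining probes were 8 (Defb6, Defb8, Defb21, Defb22, Defb35, Defb46 and 2 of Spag11b) seen on scattered arrays and 10 probes of 9 genes seen on no array (Defb3, Defb4, Defb5, Defb7, Defb12, Defb13, Defb18, Defb50 and the pseudogene Defb44-ps). For these 9 genes expression was not detectable with these arrays. Among the probes that passed, 11 were detected on both wild type arrays of 17 dpp and on none of the other 6 (Defb1, Defb2, Defb10, Defb23, Defb29, Defb37, Defb38, Defb39, Defb40, 1 of 2 probes of Defb42, and Spag11a). Over the whole array 212 probes, or 0.381%, had that pattern. Of the 11, 8 lie on chromosome 8, 2 on chromosome 2 and 1 on chromosome 14. At 17 dpp 14 of the 54 were detected on both wild type arrays and on neither knockout array, against 0.727% of all probes. In the other direction it was 0 of the 54, against 0.356% of all probes.

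**Figure D2:**
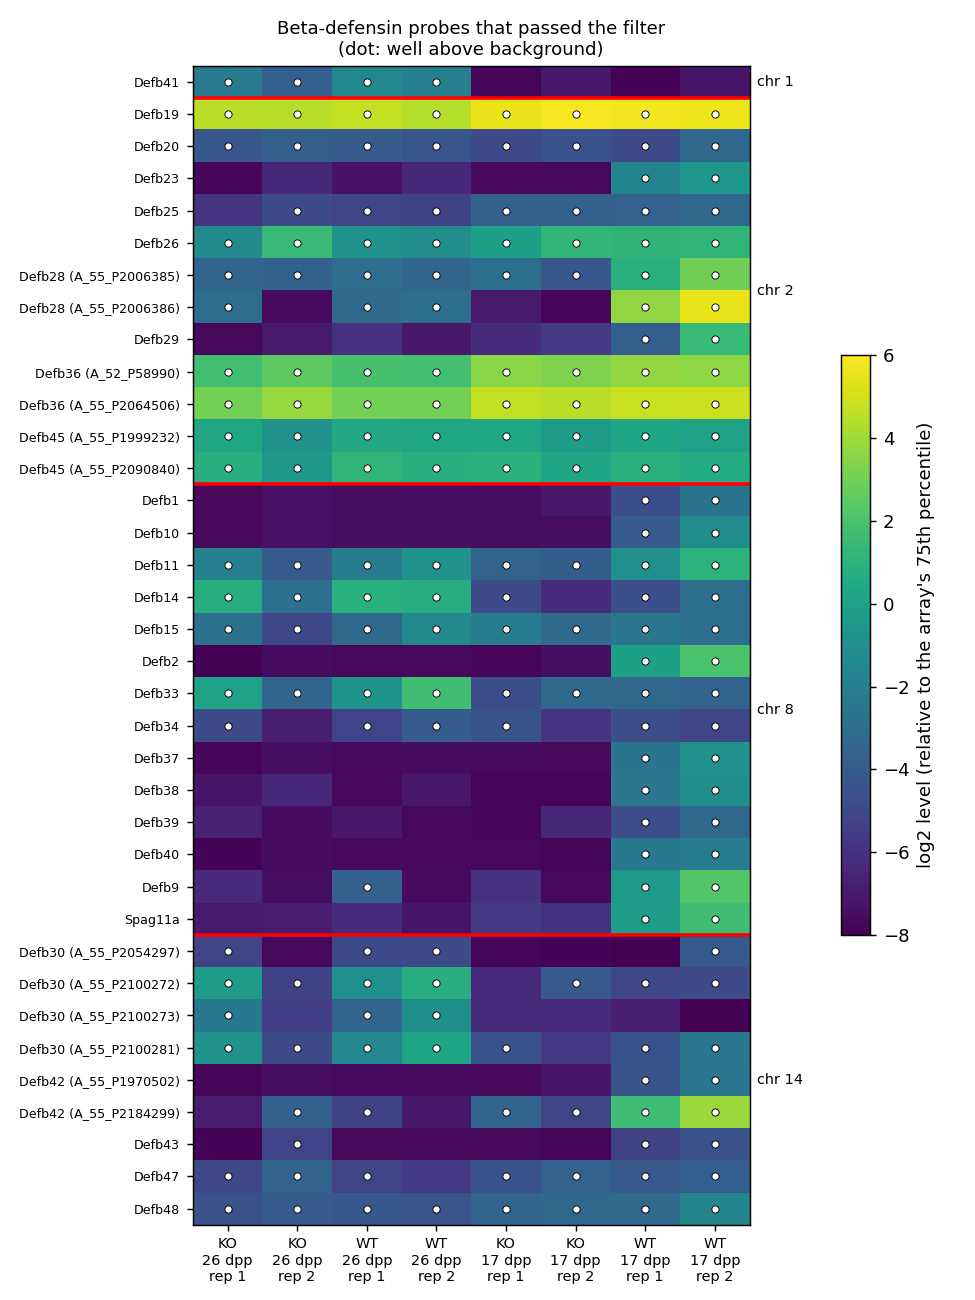
Log2 level (colour, relative to the array's 75th percentile) of the 36 beta-defensin probes that passed the filter on each of 8 arrays, with probes ordered by chromosome and a white dot where a probe was well above background. Probes of chromosome 2 such as Defb19 and Defb36 carry dots on every array, whereas 8 probes of chromosome 8 carry dots only on the 2 wild type arrays of 17 dpp.

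At 17 dpp, 5 of the 29 genes tested fell in knockout (limma, adjusted p under 0.05) and 0 rose. Over all 26585 genes 0.0865% passed as lower and 0.00376% as higher. All 5 were undetected in knockout, so their folds are lower limits for the mean of the wild type arrays, taken against the dimmest detectable signal of each array. Here and below, such a limit covers the undetected side only. It does not cover the spread between the wild type arrays, and the dimmer of them alone would give a smaller fold. Whether fewer cells of a type or less RNA per cell lie behind a level cannot be told apart in whole testes, and other sources of a level were not tested. Markers of epididymal epithelium and of adipocytes on the same arrays are given below. The genes were Defb2, Defb23, Defb37, Defb38 and Defb40. All 5 entered the test only through the wild type group of 17 dpp, where they are high, as did 12 of the 29 tested. The count, like the counts at an unadjusted p for this comparison, is therefore a description and not evidence about the family. With no filter on dim probes 2 members passed. With normexp background correction, or with only the arrays of the groups compared, 0 passed (12 and 14 members at an unadjusted p under 0.05, among 201 and 999 genes).

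Defb2, an inducible beta-defensin of mouse airway epithelium, read −7.75 and −7.48 in knockout against −0.03 and 2.06 in wild type. The groups were far apart, with the knockout arrays at the level of undetected probes. Defb2 was at least 92.1-fold lower in knockout (adjusted p = 0.035), while under normexp its difference was −4.23 on the log2 scale and did not pass (adjusted p = 0.447). Defb23 read −7.65 and −7.69 in knockout against −1.68 and −0.62 in wild type, at least 20.5-fold lower with an adjusted p of 0.0443. In the mouse, Defb23, Defb26 and Defb42 have been tied to sperm maturation through deletions in combination. Defb37 and Defb38, epididymal members of the cluster on chromosome 8, moved alike. Defb37 read −7.59 and −7.63 in knockout against −2.55 and −0.93 in wild type (at least 13.6-fold lower, adjusted p = 0.0368). Defb38 read −7.77 and −7.80 in knockout against −2.43 and −1.08 in wild type (at least 13.5-fold lower, adjusted p = 0.0368). Defb40, their neighbour, had the smallest adjusted p of the family, 0.012. It read −7.69 and −7.79 in knockout against −2.32 and −2.06 in wild type, at least 9.99-fold lower, and its wild type arrays differed least among these genes.

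For 2 of the 5 genes, Defb23 and Defb38, RefSeq promoter windows on GRCm38.p6 were given, and the 250 bases before each start are printed because these genes moved together. Capitals mark TATAAA, the letters of a TATA box, searched on both strands. The Defb23 window is chr2:152464621-152464870 and the Defb38 window chr8:19026569-19026818, both read on the minus strand.
Defb23: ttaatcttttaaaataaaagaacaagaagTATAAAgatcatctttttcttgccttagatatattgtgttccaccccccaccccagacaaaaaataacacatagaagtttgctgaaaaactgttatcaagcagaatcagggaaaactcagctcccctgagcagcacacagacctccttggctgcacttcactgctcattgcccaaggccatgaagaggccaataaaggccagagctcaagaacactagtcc
Defb38: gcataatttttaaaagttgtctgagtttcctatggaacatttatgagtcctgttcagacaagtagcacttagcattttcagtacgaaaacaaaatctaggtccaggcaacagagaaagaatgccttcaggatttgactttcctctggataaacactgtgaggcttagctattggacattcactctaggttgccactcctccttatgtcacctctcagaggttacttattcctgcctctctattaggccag
The Defb23 stretch held 1 match and the Defb38 stretch 0, so the letters are not common to both genes. Over windows of 300 bases, TATAAA occurred in 5 of 30 windows of member genes, or 16.7%, against 13.6% of all 32851 windows. Median GC content was 48.3% in the member windows and 52.7% in all windows. A match describes the letters only.

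Many other members had the same arrangement of arrays without passing. Spag11a, of the epididymal SPAG11 family whose rat relative has been linked to sperm motility, read −5.61 and −5.96 in knockout against −0.28 and 1.71 in wild type. The groups did not overlap, and it was at least 75-fold lower (adjusted p = 0.0694). Its relative Spag11b was not tested: its probes ranged from −7.74 to −6.15 in knockout and from −7.90 to −5.35 in wild type at 17 dpp, and were detected only on wild type replicate 2. Defb9 read −6.03 and −7.72 in knockout against −0.40 and 2.26 in wild type, at least 87-fold lower with an adjusted p of 0.692. Defb29 read −6.20 and −5.62 in knockout against −3.74 and 1.42 in wild type (at least 20.4-fold lower, adjusted p = 1). Its wild type arrays lay farther apart than those of any other gene of this pattern.

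Defb1, the constitutive beta-defensin of mouse kidney and other epithelia, read −7.46 and −7.12 in knockout against −4.58 and −2.59 in wild type (at least 3.80-fold lower, adjusted p = 0.462). Defb10 read −7.47 and −7.41 in knockout against −3.95 and −1.13 in wild type (at least 7.83-fold lower, adjusted p = 0.468). Defb39 read −7.73 and −6.50 in knockout against −4.61 and −3.34 in wild type (at least 2.90-fold lower, adjusted p = 0.804). Each of these was detected on both wild type arrays and neither knockout array, and none passed. Defb43 read −7.70 and −7.75 in knockout against −5.30 and −4.51 in wild type, just above the detection limit (at least 1.52-fold lower, adjusted p = 1).

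A group of 3 members that knockout testes also expressed had measured folds in the same direction. Defb28, whose cysteine-rich probe is printed above, read −2.93 and −4.18 in knockout against 0.87 and 2.98 in wild type, a difference of −5.49 (SE 0.748), or 44.9-fold (adjusted p = 0.195). A second Defb28 probe disagreed on detection: it was not well above background in knockout (−6.99 and −7.83) and read 3.67 and 5.52 in wild type. Defb42 read −3.42 and −5.13 in knockout against 1.64 and 3.91 in wild type, a difference of −7.05 (SE 1.35, adjusted p = 0.692). Its other probe was undetected in knockout and read −4.38 and −2.53 in wild type. Defb11 read −3.52 and −3.86 in knockout against −0.95 and 1.04 in wild type, a difference of −3.73 (SE 0.944, adjusted p = 1). In none of these 3 genes did the arrays of the genotypes overlap.

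**Figure D3:**
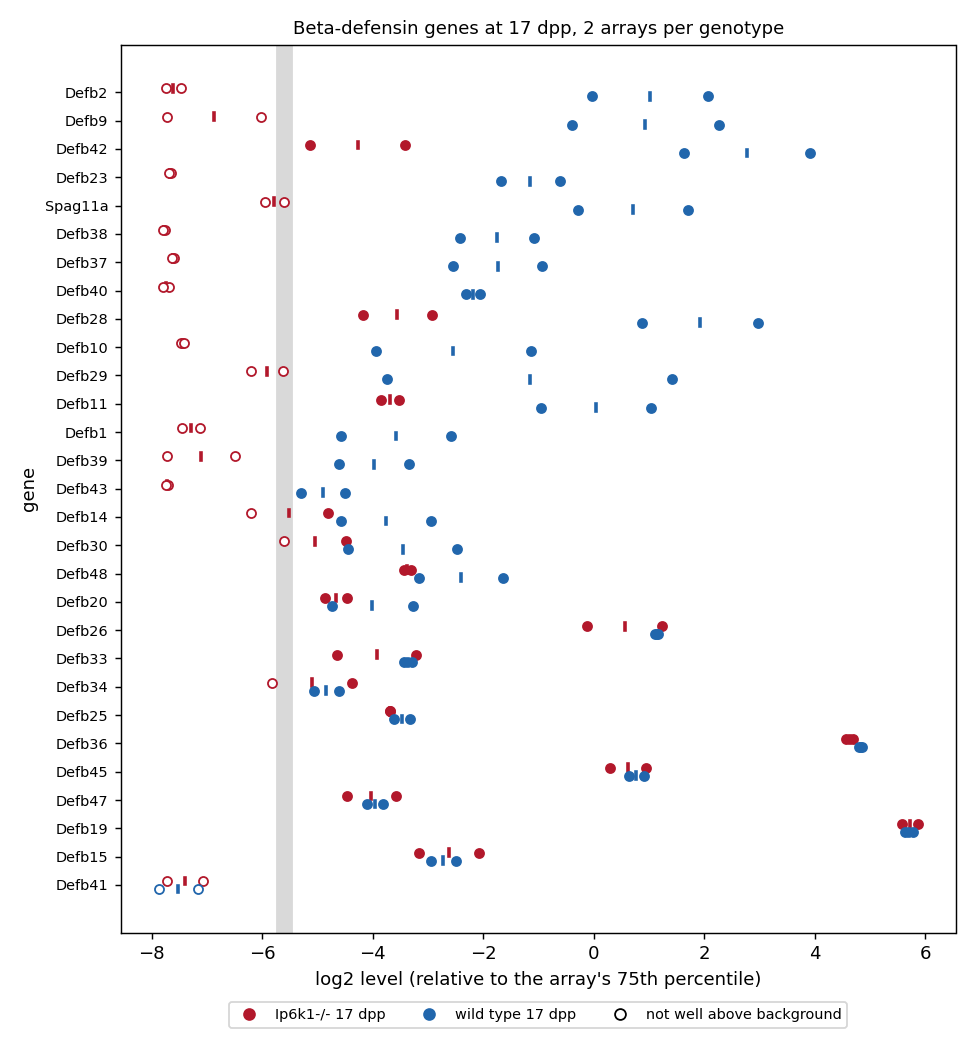
Log2 levels at 17 dpp of the 29 beta-defensin genes tested, by array, for Ip6k1-/- (red, upper of each pair) and wild type (blue), with ticks at the mean of 2 arrays, open circles where a probe was not well above background and a grey band at the detection limits. Genes are ordered by the difference, from Defb2 (−8.63) at the top, and from Defb20 downwards the points of both genotypes lie close together or overlap.

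These genes also differed between the wild type replicates. All 14 probes detected on both wild type arrays and neither knockout array at 17 dpp were higher in wild type replicate 2 than in replicate 1, by a median of 1.85 on the log2 scale (3.61-fold) and by 0.25 (Defb40) to 5.16 (Defb29). Among the 12 probes detected on all 8 arrays, 6 were higher in replicate 2 (median −0.03), and over all probes detected on both arrays the median was −0.04. Leaving out wild type replicate 1 left 4 members passing at 17 dpp among 13 genes in all. Leaving out wild type replicate 2 left 0 members and 0 genes in all, with 14 members and 259 genes at an unadjusted p under 0.05. Leaving out either knockout replicate of 17 dpp, or either wild type replicate of 26 dpp, also left 0 members and 0 genes in all (13 to 15 members at an unadjusted p under 0.05).

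Some markers of epididymal epithelium other than beta-defensins were also lower in knockout at 17 dpp. Of 15 listed markers 9 were measured, with 3 and 4 detected in knockout and 9 and 9 in wild type at 17 dpp. Their median level was −7.32 and −6.95 in knockout against −0.61 and −0.48 in wild type, and their summed relative signal 5.71 and 4.22 in knockout against 7.93 and 17.7 in wild type. The 2 with the highest level, Cst8, a cystatin, and Rnase10, a ribonuclease A family protein, were detected on all 8 arrays. Of the 9, 3 fell in knockout (Crisp1, Adam7 and Rnase9) and 0 rose. Lcn5 and Ces5a differed by −8.74 and −5.75 without passing (limma, adjusted p = 0.0803 and 0.511). Both were detected on both wild type arrays and neither knockout array of 17 dpp. Cst8 and Rnase10 lay higher in knockout by 0.42 and 0.37, and Cst11 and Lcn10 differed by −0.09 and −0.20, without passing. Crisp4, Lcn8, Lcn9, Gpx5, Bsph1 and Bsph2 did not pass the filter in any group. At 26 dpp, 6 and 3 of the 9 were detected in knockout and 4 and 4 in wild type, with medians of −4.98 and −5.77 in knockout against −5.17 and −5.30 in wild type. Their summed relative signal at that age was 29.9 and 2.39 in knockout against 21.9 and 47.1 in wild type. Most of that sum was Cst8 alone, at 4.83 and 0.29 in knockout against 4.26 and 5.52 in wild type on the log2 scale. Crisp1, Rnase9 and Lcn5 were undetected on every array of 26 dpp. The part of these markers in the beta-defensin differences was not tested. Adipocyte markers were high on the same wild type replicate 2 of 17 dpp: the median of 8 measured was −2.63 and −3.39 in knockout against −1.80 and 2.66 in wild type, and Cfd (adipsin) and Fabp4, a fatty acid carrier, read 6.70 and 6.59 on that array. Of this list 0 members passed at 17 dpp.

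Members detected in testes of both genotypes and ages formed the other pattern. Defb19, a beta-defensin transcribed in the testis, read 4.53 and 4.52 in knockout against 4.71 and 4.46 in wild type at 26 dpp, and at 17 dpp 5.58 and 5.86 in knockout against 5.77 and 5.64 in wild type. The genotypes overlapped at both ages (difference 0.02, SE 0.236, adjusted p = 1 at 17 dpp, and −0.07, adjusted p = 0.878 at 26 dpp), and every array of 26 dpp lay below every array of 17 dpp. Its neighbour on chromosome 2, Defb36, behaved alike, with 3.09 and 3.83 in knockout against 3.08 and 3.05 in wild type at 26 dpp, and at 17 dpp 4.70 and 4.57 in knockout against 4.80 and 4.86 in wild type. A second Defb36 probe ranged from 1.78 to 3.72 and was likewise lower at 26 dpp on all arrays. Defb45 read 0.82 and −0.54 in knockout against 1.17 and 0.78 in wild type at 26 dpp, and at 17 dpp 0.95 and 0.30 in knockout against 0.90 and 0.63 in wild type, with overlap between all groups. Defb26 read −1.40 and 1.43 in knockout against −0.80 and −1.06 in wild type at 26 dpp, and at 17 dpp −0.12 and 1.24 in knockout against 1.11 and 1.17 in wild type. Of its arrays of 26 dpp, only knockout replicate 2 was not below those of 17 dpp.

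Fainter members, detected on at least 1 array of every group, were Defb20, Defb25, Defb47 and Defb48. At 26 dpp Defb25 was undetected on knockout replicate 1 and Defb47 on wild type replicate 2. Defb20 read −4.21 and −3.78 in knockout against −3.95 and −4.27 in wild type at 26 dpp, and at 17 dpp −4.87 and −4.46 in knockout against −4.74 and −3.28 in wild type. Defb25 read −5.90 and −4.74 in knockout against −5.14 and −5.28 in wild type at 26 dpp, and at 17 dpp −3.69 and −3.69 in knockout against −3.61 and −3.33 in wild type. The ages did not overlap for Defb25 and did for Defb20. Defb47 read −4.94 and −3.52 in knockout against −5.11 and −5.63 in wild type at 26 dpp, and at 17 dpp −4.47 and −3.58 in knockout against −4.10 and −3.81 in wild type. Defb48 read −4.54 and −3.94 in knockout against −4.21 and −4.31 in wild type at 26 dpp, and at 17 dpp −3.44 and −3.31 in knockout against −3.17 and −1.64 in wild type, lower at 26 dpp on every array.

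Defb15 and Defb34, neighbours in sequence, were read by probes that match at 54 of 60 bases. They are printed with the 6 differing bases in capitals, at chr8:23040417-23040476 (minus strand) for Defb15 and chr8:19126406-19126465 (plus) for Defb34.
Defb15: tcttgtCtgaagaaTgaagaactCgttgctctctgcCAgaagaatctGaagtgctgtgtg
Defb34: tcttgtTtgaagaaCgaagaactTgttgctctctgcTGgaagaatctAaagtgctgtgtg
Defb15 read −2.83 and −4.99 in knockout against −3.14 and −1.43 in wild type at 26 dpp, and at 17 dpp −2.07 and −3.17 in knockout against −2.50 and −2.95 in wild type. Defb34 read −4.75 and −6.85 in knockout against −5.16 and −3.99 in wild type at 26 dpp, and at 17 dpp −4.37 and −5.82 in knockout against −4.62 and −5.07 in wild type. Both were lowest on knockout replicate 2 and highest on wild type replicate 2 of 26 dpp. On knockout replicate 2 of each age the Defb34 probe was undetected, so its lowest value is not a measured level. Neither passed in any comparison. Whether 1 probe also reads the other's transcript was not tested, so the values of Defb15 and Defb34 may not be separate measurements. Probes of Defb4 and Defb6, which were not tested, matched at 37 of 47 aligned bases.

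At 26 dpp 0 of the 29 genes differed between knockout and wild type (limma, 0 at an unadjusted p under 0.05). Over all genes 0.00752% passed as lower and 0% as higher, and 653 genes had an unadjusted p under 0.05. Of the genes that had passed at 17 dpp, Defb2 read −7.92 and −7.56 in knockout against −7.69 and −7.69 in wild type at 26 dpp. Defb2, Defb23, Defb37, Defb38 and Defb40 were undetected on all 4 arrays of that age. So were Defb1, Defb10, Defb29, Defb39 and Spag11a among the other genes tested. For genes undetected in both genotypes this comparison could not show a difference, so the count of 0 says nothing about them. The median difference of the tested members, with these included, was −0.07, against 0.08 over all genes. Without knockout replicate 1 of 26 dpp, which leaves only the replicate that stood apart, 10 members passed (6 lower, 4 higher) among 12011 genes.

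The difference between the genotype effects at 26 and at 17 dpp was tested directly. Again 0 of the 29 passed, with 13 at an unadjusted p under 0.05, and 0% of all genes passed in either direction (504 at an unadjusted p under 0.05). Of the 29, 12 entered the test only through the wild type group of 17 dpp, where they are high. This comparison uses the same arrays, so the 13 are not evidence about the family. Defb40 came closest, with an effect 5.50 higher at 26 dpp (SE 0.347, adjusted p = 0.0999). Without knockout replicate 2 of 26 dpp Defb40 passed (adjusted p = 0.0493), as did Defb2 without wild type replicate 1 of 17 dpp. Without knockout replicate 1 of 26 dpp 14 members passed, among 8643 genes in all.

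In wild type testes, 18 of the 29 genes fell and 2 rose at 26 dpp relative to 17 dpp. Over all genes 26.1% passed as lower and 18.9% as higher, with a median of −0.46 on the log2 scale. Of the 18, 12 entered the test only through the wild type group of 17 dpp, where they are high, so the count of 18 is not evidence about the family. The comparison uses the same wild type arrays of 17 dpp as the genotype comparison. The genes that fell were Defb1, Defb2, Defb9, Defb10, Defb19, Defb23, Defb25, Defb28, Defb29, Defb36, Defb37, Defb38, Defb39, Defb40, Defb42, Defb43, Defb48 and Spag11a. At 26 dpp Spag11a was undetected in wild type, at −6.20 and −7.21, a fall of at least 71.1-fold (adjusted p = 0.0054), and Defb2 was at least 87.3-fold lower (adjusted p = 0.00407). Defb40 was at least 9.47-fold lower (adjusted p = 0.00295). Defb28 was still detected at 26 dpp, at −3.01 and −3.46, and fell by 5.16 on the log2 scale (SE 0.748, adjusted p = 0.00888). Of the wild type arrays of 26 dpp, only replicate 1 detected Defb42, at −5.29, and Defb9, at −3.69 (adjusted p = 0.0094 for Defb42 and 0.0216 for Defb9). Among members expressed at both ages Defb19 fell by 1.11 (SE 0.236, adjusted p = 0.0184), Defb36 by 1.76 (SE 0.301, adjusted p = 0.0117) and Defb25 by 1.74 (SE 0.403, adjusted p = 0.0224). Leaving out the wild type arrays of 17 dpp in turn left 9 members passing without replicate 1 and 6 without replicate 2, among 181 and 184 genes in all. For those of 26 dpp it left 3 without replicate 1, among 152 genes, and 0 without replicate 2 (0 genes in all, with 18 members at an unadjusted p under 0.05).

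The members that rose with age were Defb14 and Defb41. Defb14, the mouse counterpart of human beta-defensin 3 and a ligand of CCR6 and of melanocortin receptors, read 0.86 and 0.70 in wild type at 26 dpp, against −4.57 and −2.95 at 17 dpp. It rose by 4.54 on the log2 scale (SE 1.22, adjusted p = 0.0317), or 23.2-fold. In knockout it read 0.73 and −2.88 at 26 dpp, against −4.81 and −6.21 at 17 dpp, where replicate 2 was undetected (difference 4.43, adjusted p = 0.0595). Defb41, known from the initial segment of the mouse epididymis, read −1.48 and −1.92 in wild type at 26 dpp and was undetected at 17 dpp, at least 16-fold higher (adjusted p = 0.00577). It also rose in knockout, with −2.27 and −3.80 at 26 dpp and no detection at 17 dpp (at least 5.55-fold, adjusted p = 0.0177). Defb41 was thus undetected on both wild type arrays of 17 dpp, where Defb37 to Defb40 were detected.

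**Figure D4:**
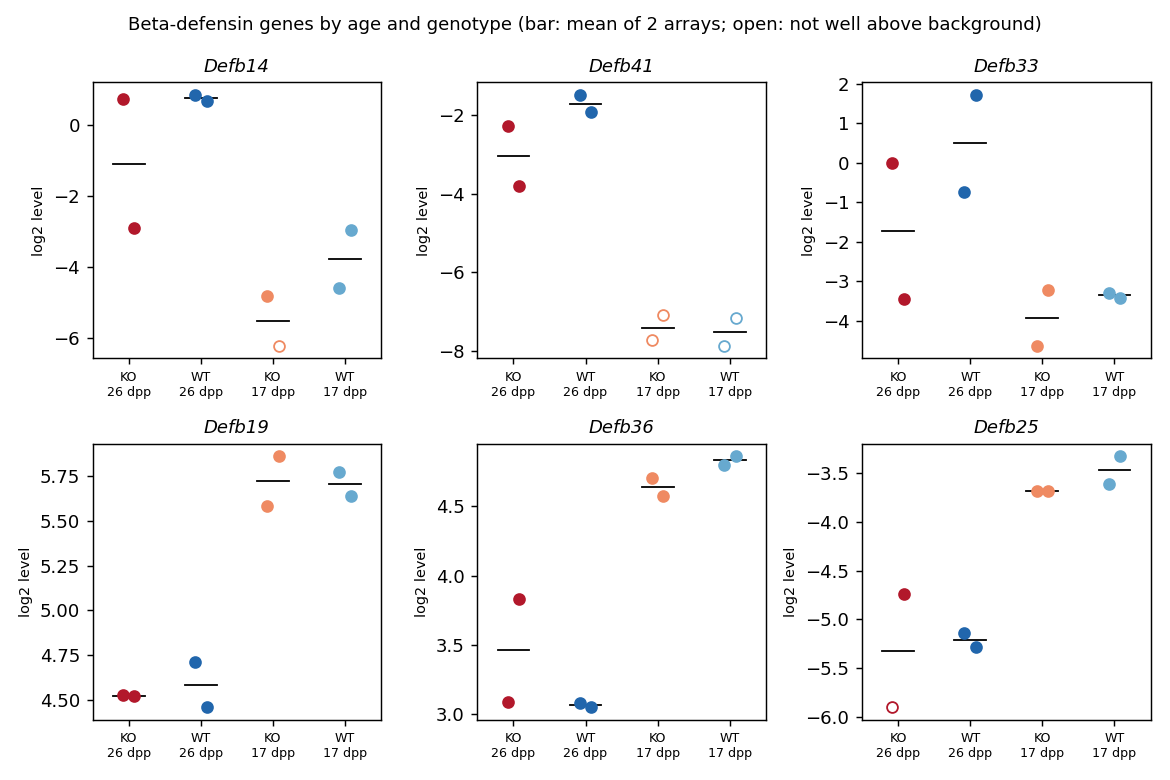
Log2 levels (relative to the array's 75th percentile) of 6 beta-defensin genes by age and genotype, 2 arrays per group, with the mean as a bar and open circles where a probe was not well above background. Each panel has its own scale. Defb14, Defb41 and Defb33 lie higher at 26 dpp except for knockout replicate 2 of Defb33, and Defb19, Defb36 and Defb25 lie lower at 26 dpp on every array.

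Defb33 and Defb30 had the same direction without passing. Defb33 read −0.74 and 1.72 in wild type at 26 dpp, against −3.29 and −3.43 at 17 dpp (difference 3.85, SE 1.30, adjusted p = 0.0538). In knockout it read 0.00 and −3.46 at 26 dpp, against −4.64 and −3.22 at 17 dpp. Defb30 has 4 probes, all higher in wild type at 26 dpp by their means. The one with the highest mean read −1.50 and 0.27 in wild type at 26 dpp, against −4.45 and −2.47 at 17 dpp (difference 2.85, SE 1.42, adjusted p = 0.137), and in knockout −0.81 and −4.76 at 26 dpp, against −4.48 and −5.61 at 17 dpp. Another was detected on both wild type arrays of 26 dpp and neither of 17 dpp, and one more gave −4.01 on wild type replicate 2 of 17 dpp, so the probes disagreed on detection at 17 dpp. On knockout replicate 2 of 26 dpp Defb14, Defb30, Defb33 and Defb41 were all lower than on knockout replicate 1.

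In knockout testes 3 of the 29 genes fell and 1 rose at 26 dpp relative to 17 dpp, against 8.18% lower and 7.62% higher over all genes and a median of −0.31 over all genes. Defb19 fell by 1.20 (SE 0.236, adjusted p = 0.029), Defb25 by 1.63 (SE 0.403, adjusted p = 0.0462) and Defb36 by 1.17 (SE 0.301, adjusted p = 0.0498), and Defb41 rose as above. The fall of Defb25 rests in part on knockout replicate 1 of 26 dpp, where it was undetected. Without knockout replicate 2 of 26 dpp 8 members passed (4 lower, 4 higher) among 15861 genes in all, the added ones being Defb14, Defb26, Defb30 and Defb33. In that setting Defb14 differed by 6.23 (adjusted p = 0.00362). The count was 5 without knockout replicate 1 of 26 dpp, 1 without knockout replicate 2 of 17 dpp, and 0 without knockout replicate 1 of 17 dpp or without any 1 of the wild type arrays. The genes that had fallen at 17 dpp in knockout were undetected in knockout at both ages, as were Defb1, Defb9, Defb10, Defb29, Defb39 and Spag11a. For all of these the comparison could not show a change, although they count among the 29 set beside the shares over all genes.

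The lists of other genes tied to the family were compared in the same fit. Among 13 other antimicrobial proteins 8 were measured, among 11 receptors and sensors tied to beta-defensins 9, and among 11 regulators tied to these genes or to the epididymal initial segment 11. In the genotype comparisons 0 of each passed. Their median differences between knockout and wild type at 17 dpp were −0.07 for antimicrobial proteins, 0.08 for receptors and −0.03 for regulators, against 0.02 over all genes. At 26 relative to 17 dpp in wild type 1 antimicrobial protein, 3 receptors and 6 regulators fell, and 1 regulator rose, against 26.1% lower and 18.9% higher over all genes. The oestrogen receptor gene Esr1 was among the regulators that fell (−1.57, SE 0.317, adjusted p = 0.0165), and was named after its values were seen.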

How the data were processed

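RNA from testes was labelled with Cy3 and hybridised to 8 Agilent arrays, all on 1 slide, where the ages lay in different rows, so row and age cannot be told apart. Per the file headers, the deposited intensity values come from Agilent Feature Extraction 11.5.1.1, and the processed signal is corrected for background. The authors' value table holds log2 values. Across probes its columns correlated at 0.999906 to 0.999946 with the logged processed signal, and lay near it minus the 75th percentile, so its scale is known, while how spots of one probe were combined is not stated. Medians of the deposited columns were −3.62 and −3.84 in knockout against −3.59 and −3.64 in wild type at 26 dpp, and at 17 dpp −3.67 and −3.63 in knockout against −3.69 and −3.69 in wild type.

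Control spots were dropped, as were 103 to 200 outlier spots on each array. Processed signals were divided by the 75th percentile of their array (470 to 692) and logged. Probes passed the filter if both arrays of some group had them well above background (37807 probes), and the passing probe with the highest mean level stood for its gene, which gave 26585 genes. Symbols were updated through RefSeq accessions for 27509 probes, while members kept the files' names. limma 3.58.1 in R 4.3.3 fitted 1 mean per group over all arrays (4 residual degrees of freedom, prior 2.05), with two-sided tests adjusted by Benjamini-Hochberg over all genes and passed at adjusted p under 0.05. The model gave 5 comparisons: knockout against wild type at each age, the difference of these effects, and 26 against 17 dpp in each genotype. A fold to an undetected group is the bright group's mean over the dim group's mean of the higher of the probe's own signal and the array's lowest detected signal. On data simulated for the 17 dpp comparison over 26585 genes, 75 of 100 genes changed by 4 on the log2 scale and 95 of 100 changed by 8 were recovered, with 10 false calls. The simulated noise was normal, with spreads shuffled between genes and no detection limit. These rates therefore do not carry over to members that are dim or vary widely between replicates. The number of arrays limits the precision.

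Members, gene lists, motifs and probes printed were chosen with earlier results of these data known. The rule for values per array takes genes that passed any comparison, genes detected on all arrays or in at least 2 groups, the 6 highest of those detected in 1 group, Spag11a, Spag11b, Defb1 and Defb19. Outside the family it names Ip6k1 and the 2 highest members of a marker list. Crisp1, Adam7, Rnase9, Lcn5, Ces5a, Cst11, Lcn10 and the undetected markers fall outside it and were named after their values were seen. Replicate numbers were not used as pairs in the main model. Alternatives covered background correction, normalization, the filter, the authors' table, probe-level tests, the arrays used, the replicate block and leaving out each array. Figures were drawn with matplotlib.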

Additional observations from a re-analysis of the deposited data

How the results depend on the processing

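Single-gene results were recomputed with normexp, quantile normalization, no filter, the authors' table and each of 8 arrays left out. None of these reversed: 579 values stayed on their side of the threshold, 26 passed only under the alternative and 139 no longer passed. Single genes were not recomputed with the replicate block, with only the arrays compared or probe by probe. The count of beta-defensin genes that differed between knockout and wild type at 17 dpp, 5, was 0 with normexp background correction, 2 with no filter on dim probes, 0 with only the arrays of the groups compared, 4 with quantile normalization and 5 with the authors' table and with every kept probe on its own. Normexp was run with an offset of 50 added to each signal, which compresses log2 differences to dim groups. Under it the differences were smaller (Defb2 −4.23, Defb40 −1.53), and how much of this comes from the offset was not tested. Leaving out 1 array at a time gave counts of 0 to 4 at 17 dpp, 0 to 10 at 26 dpp, 0 to 14 for the difference between ages, 0 to 24 for age in wild type and 0 to 8 for age in knockout. A setting that leaves 1 array in a group assumes that it varies like the other groups. The difference between ages gave 1 with quantile normalization (Defb40). Age in wild type, 20, was 18 to 23 in the other settings, with 18 to 20 genes shared. Age in knockout, 4, was 2 with no filter and 0 with only the arrays of the groups compared. Detection on both arrays in knockout at 17 dpp, 15 probes, was 27 with the scanner's flag for a positive and significant signal. When 1 array of a group sufficed, 22 probes were detected in knockout against 41 in wild type at 17 dpp. At 26 dpp it was 26 in knockout against 25 in wild type. The median of all genes lay between 0.01 and 0.03 at 17 dpp and between 0.08 and 0.13 at 26 dpp under the 4 scalings, and between −0.54 and −0.36 for age in wild type.

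The groups share replicate numbers, but the labels tie no number to a shared litter or batch. Deviations of same-numbered samples correlated at 0.11 for knockout and wild type at 17 dpp, −0.40 at 26 dpp, −0.07 between ages in wild type and −0.11 in knockout, so the numbers were not taken as pairs. With the replicate number as a block the count was 0 at 17 dpp (15 at an unadjusted p under 0.05), 0 at 26 dpp, 0 for the difference between ages, 20 for age in wild type and 1 for age in knockout. Levels near the detection limit carry no order. Folds to undetected groups are bounds on the undetected side only and leave out the spread between the arrays of the bright group.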

Other observations

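Camp, the mouse cathelicidin and another epithelial and neutrophil antimicrobial peptide, lay higher in knockout on both arrays at 17 dpp, and was picked out after its values were seen. It read 0.25 and −0.72 in knockout against −2.77 and −3.12 in wild type, with no overlap, a difference of 2.71 (SE 0.456) that did not pass over all genes (adjusted p = 0.462). At 26 dpp it read −1.94 and −2.88 in knockout against −2.33 and −2.60 in wild type, and within knockout it fell by 2.17 at 26 relative to 17 dpp (adjusted p = 0.0325). Of 6 neutrophil markers, a list that also holds Camp, 3 were measured, with medians of −4.06 and −4.43 in knockout against −3.06 and −3.12 in wild type at 17 dpp. Each median is the value of a single gene, which changes between arrays and is Camp itself on wild type replicate 2. The medians are therefore no separate comparison for Camp.

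The summed signal of the family, relative to the 75th percentile, was 43.9 and 47.8 in knockout against 47.6 and 47.8 in wild type at 26 dpp, and at 17 dpp 90.7 and 97.2 in knockout against 123 and 186 in wild type. Without Defb19, Defb26, Defb36 and Defb45 it was 5.43 and 1.20 in knockout against 4.87 and 10.5 in wild type at 26 dpp, and at 17 dpp at most 1.25 in knockout against 22.8 and 90.5 in wild type. These 4 genes were set apart after their values were seen. The sums run over probes, so both Defb28 probes are counted. The brighter of them in wild type at 17 dpp, at 3.67 and 5.52 on the log2 scale, made up the largest part of the wild type remainder at that age.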
